A study of Mus musculus with 6 samples.

Results

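This is an account of the binding sites of C/EBPα, IRF8 and JUNB around 9 genes that encode transcription factors of the macrophage lineage, Maf, Runx1, Mitf, Tfec, Mef2c, Mef2a, Bhlhe40, Bhlhe41 and Ets2, in mouse macrophages before and after a short exposure to IL-4. Every ChIP-seq peak that the authors' annotation assigned to one of these genes by its nearest transcription start site (TSS) was taken. This gave 563 of the 134964 peaks in the 6 peak lists, which merged into 234 regions of 60856, and 9 of the 14930 genes with a peak. The material was bone marrow-derived macrophages (BMDMs) of wild-type mice aged 8 to 12 weeks, C57BL/6 per the study's methods. They were differentiated for 6 days in L929 supernatant as a source of M-CSF, which both conditions shared. The control samples came from cells without IL-4, and the others from cells that had IL-4 for 1 h at 20 ng/ml. There was 1 sample for each antibody and condition, so no value below has a replicate. Neither a test nor a spread between samples can be given. Depth, library kit and background may differ from sample to sample, and such differences cannot be told apart from an effect of IL-4.

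In number of peaks, the control and IL-4 lists of C/EBPα (24486 and 24612) were alike in length, while those of IRF8 (37525 and 42076) and of JUNB (3940 and 2325) were less so. The read depth behind all of them is unknown. The labelled cell type was checked on genes that mark it. All 5 of 5 macrophage genes (Csf1r, Adgre1, Itgam, Cd68 and Mertk) had C/EBPα and IRF8 peaks in both conditions, whereas of the 5 genes of other cells that are reported (Cd3e, Ebf1, Gata1, Alb and Krt5), which are part of a longer list, 1 had an IRF8 peak, Gata1, and 0 had a C/EBPα or JUNB peak. JUNB peaks separate these sets less, as only 3 of the 5 macrophage genes had one in control and 1 after IL-4.

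C/EBPα, IRF8 and the AP-1 subunit JUNB occupy macrophage enhancers together with PU.1, and they mark out where signal-dependent factors such as STAT6, which IL-4 activates, can act. The 9 genes encode regulators that work on such enhancers. Maf is a basic leucine zipper factor of mature macrophages, Runx1 is the DNA-binding subunit of core-binding factor in blood cells, and Mitf and Tfec are related helix-loop-helix leucine zipper factors, of which Tfec is largely confined to macrophages and known as an IL-4-responsive gene. Mef2a and Mef2c are MADS-box factors, Bhlhe40 and Bhlhe41 are helix-loop-helix repressors, and Ets2 is an ETS factor downstream of M-CSF signaling. In the RefSeq annotation of GRCm38, the assembly of mm10, Maf lies at chr8:115703253-115706894, Runx1 at chr16:92601466-92826074, Mitf at chr6:97807002-98021360, Tfec at chr6:16830927-16898464, Mef2c at chr13:83504017-83667079, Mef2a at chr7:67231163-67376456, Bhlhe40 at chr6:108660629-108666925, Bhlhe41 at chr6:145858243-145865420 and Ets2 at chr16:95702407-95721049.

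The sequences of the regions on which the results turn are given first, as 200 bp on the plus strand of mm10, centred on the peak or, in the first set, on the region merged over the lists. They were read from the GRCm38 reference, and distances are to the TSS of the named gene. Capitals mark matches, on either strand, to any of 5 motifs. These were TGANTCA (AP-1), TTGC and AA separated by 2 bases (C/EBP), GGAA and GAAA separated by 2 bases (the PU.1-IRF composite element), GAAA repeated after 2 bases (interferon-type) and TTC and GAA separated by 4 bases (STAT6-type). The PU.1-IRF and interferon-type patterns share GAAA and can overlap. A match is a description of the letters and not a measured site. The first set are the highest-scoring regions that were occupied by all 3 factors in both conditions. The Maf and Runx1 windows each hold an AP-1 match and the Mef2c window a pair of C/EBP matches. The JUNB control peak of the Maf region ends before its window starts, and the window overlaps the JUNB peak after IL-4 in part only. The centres of the shared C/EBPα peaks and of the IRF8 control peak there also lie outside this window.
Maf region at 283587 bp, all 6 lists (chr8:115423396-115423595): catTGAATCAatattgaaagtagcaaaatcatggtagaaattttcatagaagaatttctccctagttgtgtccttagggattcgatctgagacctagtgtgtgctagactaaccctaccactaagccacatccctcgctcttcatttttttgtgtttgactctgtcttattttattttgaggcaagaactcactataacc
Runx1 region at 21458 bp, all 6 lists (chr16:92675771-92675970): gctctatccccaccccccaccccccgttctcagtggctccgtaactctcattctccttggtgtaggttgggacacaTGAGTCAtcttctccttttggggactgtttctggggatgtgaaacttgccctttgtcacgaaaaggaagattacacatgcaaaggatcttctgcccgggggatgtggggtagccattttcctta
Mef2c region at -429633 bp, all 6 lists (chr13:83074393-83074592): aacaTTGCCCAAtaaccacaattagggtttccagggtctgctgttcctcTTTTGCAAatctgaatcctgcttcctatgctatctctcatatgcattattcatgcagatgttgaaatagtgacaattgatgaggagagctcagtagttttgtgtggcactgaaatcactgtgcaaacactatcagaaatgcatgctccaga
The second set are the C/EBPα peaks whose score rose at least 2-fold after IL-4 and whose window holds a STAT6-type match, which is in capitals. The window is that of the IL-4 peak, and the regions were chosen after their values were seen.
Tfec promoter, C/EBPα peak at -159 bp (chr6:16898501-16898700): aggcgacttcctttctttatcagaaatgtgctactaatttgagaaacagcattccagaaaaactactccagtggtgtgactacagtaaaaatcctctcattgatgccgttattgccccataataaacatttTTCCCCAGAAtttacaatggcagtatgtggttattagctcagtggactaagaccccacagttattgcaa
Maf, C/EBPα peak at 167080 bp (chr8:115539715-115539914): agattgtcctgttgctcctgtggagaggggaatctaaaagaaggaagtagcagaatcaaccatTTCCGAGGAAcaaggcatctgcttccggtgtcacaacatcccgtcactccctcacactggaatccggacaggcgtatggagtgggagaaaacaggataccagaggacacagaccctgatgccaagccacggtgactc
Maf, C/EBPα peak at 169819 bp (chr8:115536976-115537175): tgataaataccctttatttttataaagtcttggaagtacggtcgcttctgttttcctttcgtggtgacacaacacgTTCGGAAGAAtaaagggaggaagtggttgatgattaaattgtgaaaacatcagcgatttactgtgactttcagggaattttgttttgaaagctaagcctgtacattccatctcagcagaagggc
Maf, C/EBPα peak at 314344 bp (chr8:115392451-115392650): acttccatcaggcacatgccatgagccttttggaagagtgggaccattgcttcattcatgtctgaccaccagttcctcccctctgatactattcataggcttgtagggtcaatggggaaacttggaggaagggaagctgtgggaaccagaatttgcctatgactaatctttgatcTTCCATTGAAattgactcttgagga
Runx1, C/EBPα peak at -17763 bp (chr16:92714992-92715191): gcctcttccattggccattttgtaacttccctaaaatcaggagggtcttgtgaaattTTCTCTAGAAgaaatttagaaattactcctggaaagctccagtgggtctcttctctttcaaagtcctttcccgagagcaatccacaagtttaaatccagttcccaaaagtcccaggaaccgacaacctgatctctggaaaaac
The third set are the highest-scoring peaks that a factor had in a single condition. The capitals are a C/EBP match in the Mef2a and Mitf windows, a PU.1-IRF match in the first Maf window and AP-1 matches in the second Maf, the Runx1 and the Tfec windows.
Mef2a, control-only C/EBPα peak at -91030 bp (chr7:67463789-67463988): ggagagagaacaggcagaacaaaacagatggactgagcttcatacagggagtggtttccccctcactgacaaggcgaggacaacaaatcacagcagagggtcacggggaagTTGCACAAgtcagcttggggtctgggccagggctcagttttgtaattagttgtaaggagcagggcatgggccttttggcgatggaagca
Mitf, IL-4-only C/EBPα peak at 13992 bp (chr6:97820951-97821150): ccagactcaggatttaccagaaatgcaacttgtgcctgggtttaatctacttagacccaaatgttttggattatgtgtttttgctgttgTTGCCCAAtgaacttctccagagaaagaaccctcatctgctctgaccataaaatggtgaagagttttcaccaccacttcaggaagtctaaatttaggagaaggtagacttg
Maf, control-only IRF8 peak at 106857 bp (chr8:115599938-115600137): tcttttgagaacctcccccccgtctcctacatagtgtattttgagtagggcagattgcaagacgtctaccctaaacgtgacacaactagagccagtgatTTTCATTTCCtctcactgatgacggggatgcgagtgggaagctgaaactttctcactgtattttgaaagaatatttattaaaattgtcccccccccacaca
Maf, IL-4-only IRF8 peak at 138266 bp (chr8:115568529-115568728): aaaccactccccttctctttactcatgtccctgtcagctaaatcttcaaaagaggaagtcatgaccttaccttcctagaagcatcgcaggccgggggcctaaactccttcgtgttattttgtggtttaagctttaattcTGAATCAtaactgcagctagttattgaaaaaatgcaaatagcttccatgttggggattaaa
Runx1, control-only JUNB peak at 76391 bp (chr16:92620838-92621037): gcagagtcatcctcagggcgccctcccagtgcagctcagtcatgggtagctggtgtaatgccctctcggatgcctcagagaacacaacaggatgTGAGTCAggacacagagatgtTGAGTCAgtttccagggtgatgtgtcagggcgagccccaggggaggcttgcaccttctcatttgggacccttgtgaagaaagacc
Tfec, IL-4-only JUNB peak at 6401 bp (chr6:16891941-16892140): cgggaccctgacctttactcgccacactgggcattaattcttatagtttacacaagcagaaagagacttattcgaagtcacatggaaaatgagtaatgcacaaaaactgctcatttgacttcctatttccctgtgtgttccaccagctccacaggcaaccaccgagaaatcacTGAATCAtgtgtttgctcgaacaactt

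The first question was how densely the 9 loci were occupied. Maf, Runx1, Mef2c, Mef2a and Mitf were among the loci with the most peaks, and Bhlhe40, Bhlhe41 and Ets2 had few. Maf carried 28 C/EBPα peaks in control, the third-highest number (rank 3) among 9327 genes with a peak, and 37 IRF8 peaks, rank 3 among 12167. Runx1 carried 21 and 34 (ranks 16 and 6), Mef2c 17 and 27 (ranks 33 and 22), Mitf 14 and 18 (ranks 78 and 92), Mef2a 12 and 19 (ranks 124 and 69) and Tfec 9 and 10 (ranks 275 and 466). The median gene with a peak had 2 peaks of either factor. Bhlhe41 had 3 C/EBPα and 3 IRF8 peaks in control, Ets2 had 3 and 4, and Bhlhe40 had 1 and 2.

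Long loci collect more peaks, so the counts were also expressed per 100 kb of the stretch for which each gene is the nearest one. C/EBPα control peaks numbered 5.2 per 100 kb at Mef2a, 4.16 at Runx1, 2.94 at Maf, 2.55 at Mitf, 1.7 at Mef2c, 1.5 at Tfec and 1.27 at Ets2, against 0.898 over the genome. The order by number and the order by density thus differed. Mef2a led the larger loci by density on a stretch of 231 kb, while the stretches of Maf and Mef2c were 953 kb and 1001 kb long. The IRF8 control density was 8.23 at Mef2a, 6.73 at Runx1 and 3.88 at Maf, against 1.38 over the genome. For Bhlhe40 and Bhlhe41, whose stretches were only 21 kb and 58 kb, the densities rest on 1 to 4 peaks in a list.

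**Figure D1:**
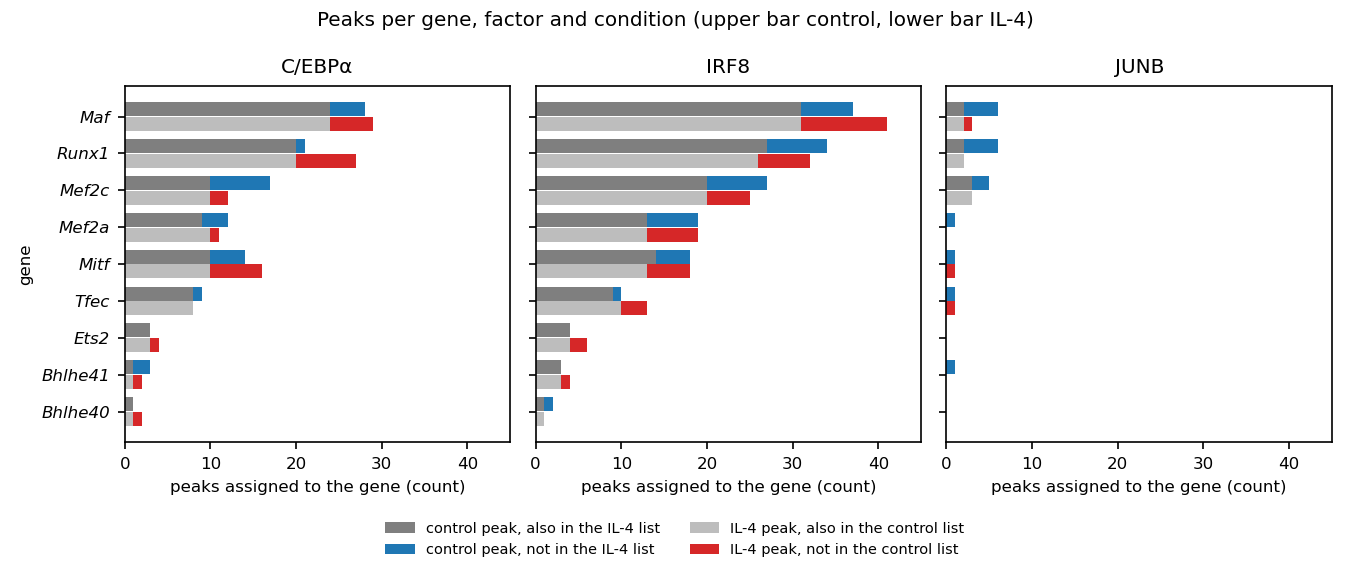
Number of peaks assigned to each gene (x axis, count) for C/EBPα, IRF8 and JUNB; for each gene the upper bar is the control list and the lower bar the IL-4 list, divided into peaks shared between conditions (grey) and peaks of that list alone (blue in control, red after IL-4). Maf, with 28 and 29 C/EBPα peaks and 37 and 41 IRF8 peaks, has the longest bars, and the JUNB bars shorten from 21 peaks in all to 10.

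Much of this binding lay far from the start sites. Peaks more than 100000 bp from the TSS made up 37.0% of the C/EBPα control peaks of the 9 genes (40 of 108, Wilson 95% interval 28.5% to 46.4%), against 12.2% of all C/EBPα control peaks. The IRF8 control share was 39.0% (60 of 154, 31.6% to 46.8%) against 13.4%. These intervals, like all those below, cover counting error only and treat the peaks as independent. The long-range peaks belonged mainly to Maf (110 of its 144 peaks over all lists), Mef2c (63 of 89) and Runx1 (30 of 122). Mitf, a gene of many promoters, was occupied from within, with 55 of 68 peaks in introns. Maf lies in a gene-poor stretch, and 9 of its 55 merged regions fell in intron 8 of the neighboring gene Wwox, up to 611033 bp from the Maf TSS. Mef2c had no peak within 1000 bp of its TSS in any list (0 of 89), and its peaks reached to -714769 bp.

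Promoter peaks were few. They made up 3.7% of the C/EBPα control peaks of the 9 genes (1.45% to 9.14%) against 6.88% of all, and 1.95% of the IRF8 control peaks (0.665% to 5.57%) against 7.25%. The promoter peaks that did occur included a strong one at Tfec, where C/EBPα scored 55.47 in control, above 92.3% of the list. The Runx1 promoter peak scored 14.13 for C/EBPα and 9.78 for IRF8 in control. At the other start sites the peaks were weaker. Mef2a had a C/EBPα peak whose score of 11.0 in control compared with 2.72 after IL-4 at -932 bp and an IRF8 peak of 4.76 at -460 bp after IL-4. The remaining promoter peaks were each in a single list, namely IRF8 at Maf (7.47), Ets2 (7.2) and Mitf (3.45) after IL-4 and at Bhlhe40 (5.75) in control, C/EBPα at Bhlhe41 (5.08) in control and C/EBPα at the internal start site of Runx1 (2.51, at 617 bp, in the 5′ UTR) after IL-4. RefSeq promoter windows of 300 bases matched 7 of the 9 genes (12 windows, Maf and Bhlhe40 not among them). A peak lay on 4 of the 12, and 1 of the 12, that of Tfec, held a STAT6-type match, which 6.95% of all 32851 RefSeq promoters had.

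The strongest sites of the loci were mostly distal and were found in both conditions. The highest C/EBPα score was at Mef2c, at -429633 bp (chr13:83074143-83074842), with 187.87 before and 189.44 after the cytokine. The highest IRF8 score was at Maf, at -71709 bp (chr8:115778345-115778822), with 209.1 and 230.46. IRF8 scored 174.19 and 199.33 at Runx1 in intron 4 of 6 (21458 bp), 170.72 and 198.49 at Mitf in intron 1 of 9 (50864 bp), 140.66 and 160.11 at Mef2c in intron 2 of 10 (68134 bp) and 115.65 and 110.12 at Mef2a in intron 3 of 11 (65528 bp). The leading C/EBPα peak scored 117.44 and 87.89 at Ets2 (26660 bp), 109.4 and 83.56 at Runx1 (-18281 bp), 87.94 and 89.84 at Maf (283587 bp), 75.85 and 78.48 at Mef2a (-7496 bp), and 59.0 and 58.31 at Mitf (19789 bp). At Tfec the leading IRF8 peak scored 49.75 and 56.9 (-65700 bp), and the leading C/EBPα peak was the promoter. The leading peaks of Bhlhe40 and Bhlhe41 were weak, with C/EBPα scores of 14.25 and 18.67 at Bhlhe40 (-1105 bp) and 9.11 and 14.1 at Bhlhe41 (-17775 bp), and IRF8 scores of 6.97 and 5.62 and of 15.81 and 13.17. The leading IRF8 peak of Ets2 was at 94938 bp in control (22.14) and at 26594 bp after IL-4 (26.67). Each leading control peak of the 9 genes for C/EBPα and IRF8 had a counterpart after IL-4.

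The second question was whether peaks at the 9 genes appeared or disappeared after IL-4. For C/EBPα and IRF8 the shares were close to those of the whole lists. Of 108 C/EBPα control peaks, 22 had no counterpart after IL-4 (20.4%, interval 13.9% to 28.9%; 21.4% of all C/EBPα control peaks), and of 111 IL-4 peaks, 24 were absent from control (21.6%, upper bound 30.2%; 22.0% of all). Of 154 IRF8 control peaks, 32 were control-only (20.8%, 15.1% to 27.9%; 21.4% of all), and of 159 IL-4 peaks, 38 were IL-4-only (23.9%, 17.9% to 31.1%; 30.4% of all). For JUNB, 14 of 21 control peaks were control-only (66.7%, 45.4% to 82.8%; 64.2% of all), and 3 of 10 IL-4 peaks were IL-4-only (30.0%, 10.8% to 60.3%; 39.2% of all). Each interval includes the share of the whole list, and that of the IRF8 IL-4-only peaks does so near its upper bound.

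The C/EBPα peaks seen in a single condition were mostly weak. Their control-only peaks had a median score of 7.09, against 15.495 for shared control peaks, and the IRF8 IL-4-only peaks had a median of 4.99 and reached at most 14.99. The JUNB control-only peaks had a median of 7.575, against 12.68 for shared control peaks and 7.88 for the whole control list. They reached 13.7 at Runx1 (above 82.6% of the list) and 13.14 at Mef2c (above 80.9%). The 3 JUNB IL-4-only peaks had a median of 5.08, against 6.79 for shared IL-4 peaks. Only 2 single-condition peaks of the 563 reached a score of 15, a level close to the highest JUNB score of the 9 genes (15.41, a shared peak). One was the C/EBPα peak in intron 1 of Mitf (13992 bp, chr6:97820942-97821159), which scored 24.86 after IL-4, above 75.3% of the list, with no control peak there. It lay next to a C/EBPα peak found in both conditions, at 13572 bp, which scored 18.61 in control and 19.46 after IL-4. The other was the C/EBPα peak at -91030 bp of Mef2a (chr7:67463760-67464017), which scored 17.88 in control, with no IL-4 peak. Both windows, printed above, hold a C/EBP match.

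The number of gains and losses differed from gene to gene, and it rested on weak peaks. At Runx1, 7 of 27 C/EBPα peaks were IL-4-only (22.0% of all C/EBPα IL-4 peaks were) and 1 of 21 was control-only (21.4% of all). The control-only peak and 1 of the IL-4-only peaks lay side by side in 1 merged region. At Mef2c, 2 of 12 were IL-4-only and 7 of 17 control-only. With peaks scoring at least 10 alone, Runx1 had 16 in control and 16 after IL-4, and Mef2c had 10 and 9. The 7 Mef2c peaks were low, with scores between 5.56 and 13.21. Tfec lost 1 weak C/EBPα peak (8.95, in intron 2 of 6) and gained none. At Maf, 10 of 41 IRF8 peaks were IL-4-only (30.4% of all IRF8 IL-4 peaks were) and 6 of 37 were control-only (21.4% of all IRF8 control peaks). All these IL-4-only peaks scored at most 14.99.

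The third question was how the score changed at peaks found in both conditions. The deposited score comes without a unit, and its relation to read depth was not tested. A score is said to have risen or fallen where it changed at least 2-fold. Over the 9 genes as a whole the C/EBPα and IRF8 scores hardly moved. The median log2 ratio of IL-4 over control for C/EBPα was 0.03 (86 pairs, 46 higher and 40 lower) and that for IRF8 was -0.07 (119 pairs, 53 higher and 66 lower), and the same medians over all peaks were -0.0 and 0.08. The share of higher pairs was 53.5% for C/EBPα (43.0% to 63.7%; 49.7% of all). For IRF8 it was 44.5% (35.9% to 53.5%; 55.4% of all), an interval that leaves out the share of all pairs. When each list was divided by its median score, the IRF8 median of the 9 genes changed sign to 0.03, so no direction is given for it. For C/EBPα, 9 of the 86 pairs rose at least 2-fold (7.72% of all C/EBPα pairs did) and 5 fell as much (6.56% of all). For IRF8, 12 of the 119 pairs rose (11.3% of all) and 9 fell (7.96% of all). JUNB had 7 pairs, of which none rose 2-fold (0 pairs; 2.99% of all) and 2 fell (29.9% of all), with a median of -0.42 against -0.54 over all peaks. Dividing by the list median shifted every JUNB ratio by 0.34 on the log2 scale, after which 1 JUNB pair was past 2-fold up and none down (0 pairs).

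**Figure D2:**
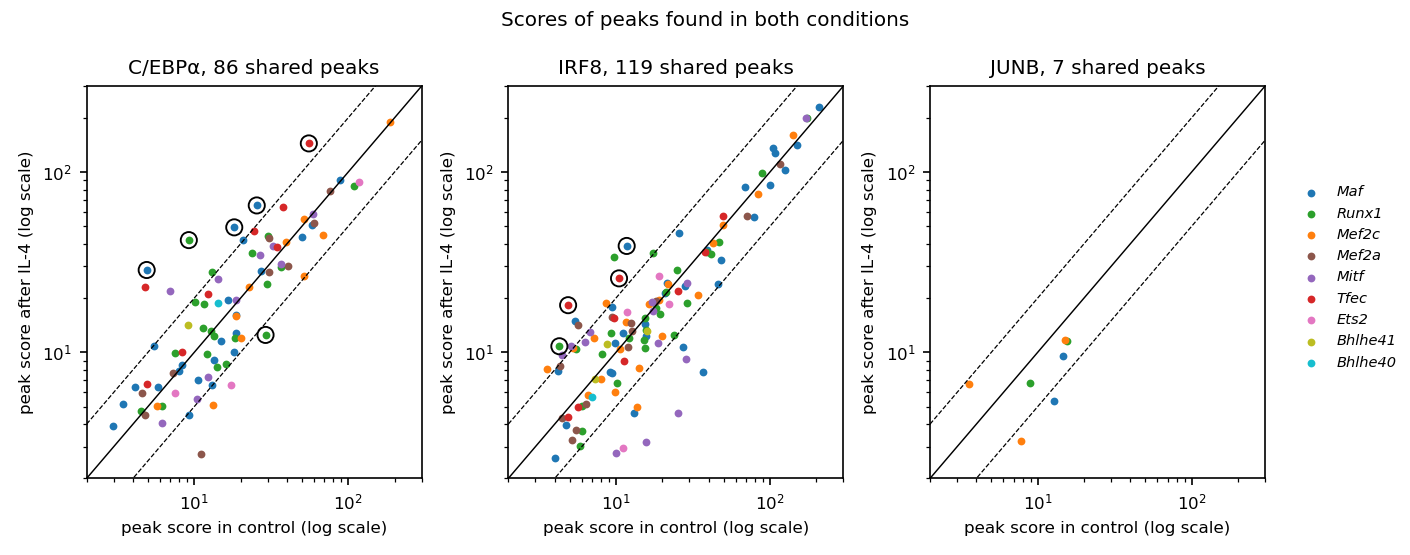
Peak score in control (x axis, log scale) against peak score after IL-4 (y axis, log scale) for every peak of the 9 genes found in both conditions, with 86 C/EBPα, 119 IRF8 and 7 JUNB pairs. Each point is a pair colored by gene, the solid line is equality, dashed lines mark a 2-fold change, and black rings mark pairs past 2-fold with a STAT6-type match. The Tfec promoter (55.47 to 144.11) is the ringed red point at the top of the C/EBPα panel.

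At Tfec, all 8 of 8 C/EBPα pairs were higher after IL-4 (lower bound of the interval 67.6%), against 49.7% of all C/EBPα pairs, and the median ratio was 1.71-fold. Its promoter peak (chr6:16898229-16898893 as merged over the lists) went from 55.47 to 144.11 for C/EBPα, a 2.6-fold rise, from above 92.3% to above 99.5% of the list. At the same place IRF8 went from 4.89 to 18.26, a 3.73-fold rise. In intron 1 of 6, C/EBPα went from 24.27 to 46.91 at 8786 bp, where IRF8 went from 9.74 to 15.41, and from 37.65 to 64.01 at 14573 bp, where IRF8 went from 10.47 to 25.72. In intron 5 of 6, at 62590 bp, C/EBPα went from 4.78 to 23.1 with no IRF8 peak. Of the 8 C/EBPα pairs, 2 rose at least 2-fold, those at the promoter and at 62590 bp. The pairs not yet given were also higher, from 12.24 to 21.03 at 167534 bp and from 4.9 to 6.7 at -67439 bp. They further went from 34.61 to 38.6 at -65700 bp and from 8.34 to 10.09 at 6385 bp. IRF8 did not share this pattern over the locus, with 4 of 9 Tfec pairs higher and 5 lower (5 of 9 higher after division by the list median). Of all IRF8 pairs, 55.4% were higher as deposited. The difference between the factors has no test, as each rests on 1 sample per condition. Without the Tfec pairs the C/EBPα median over the other genes was -0.01, on 78 pairs, an alternative chosen after seeing the data.

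**Figure D3:**
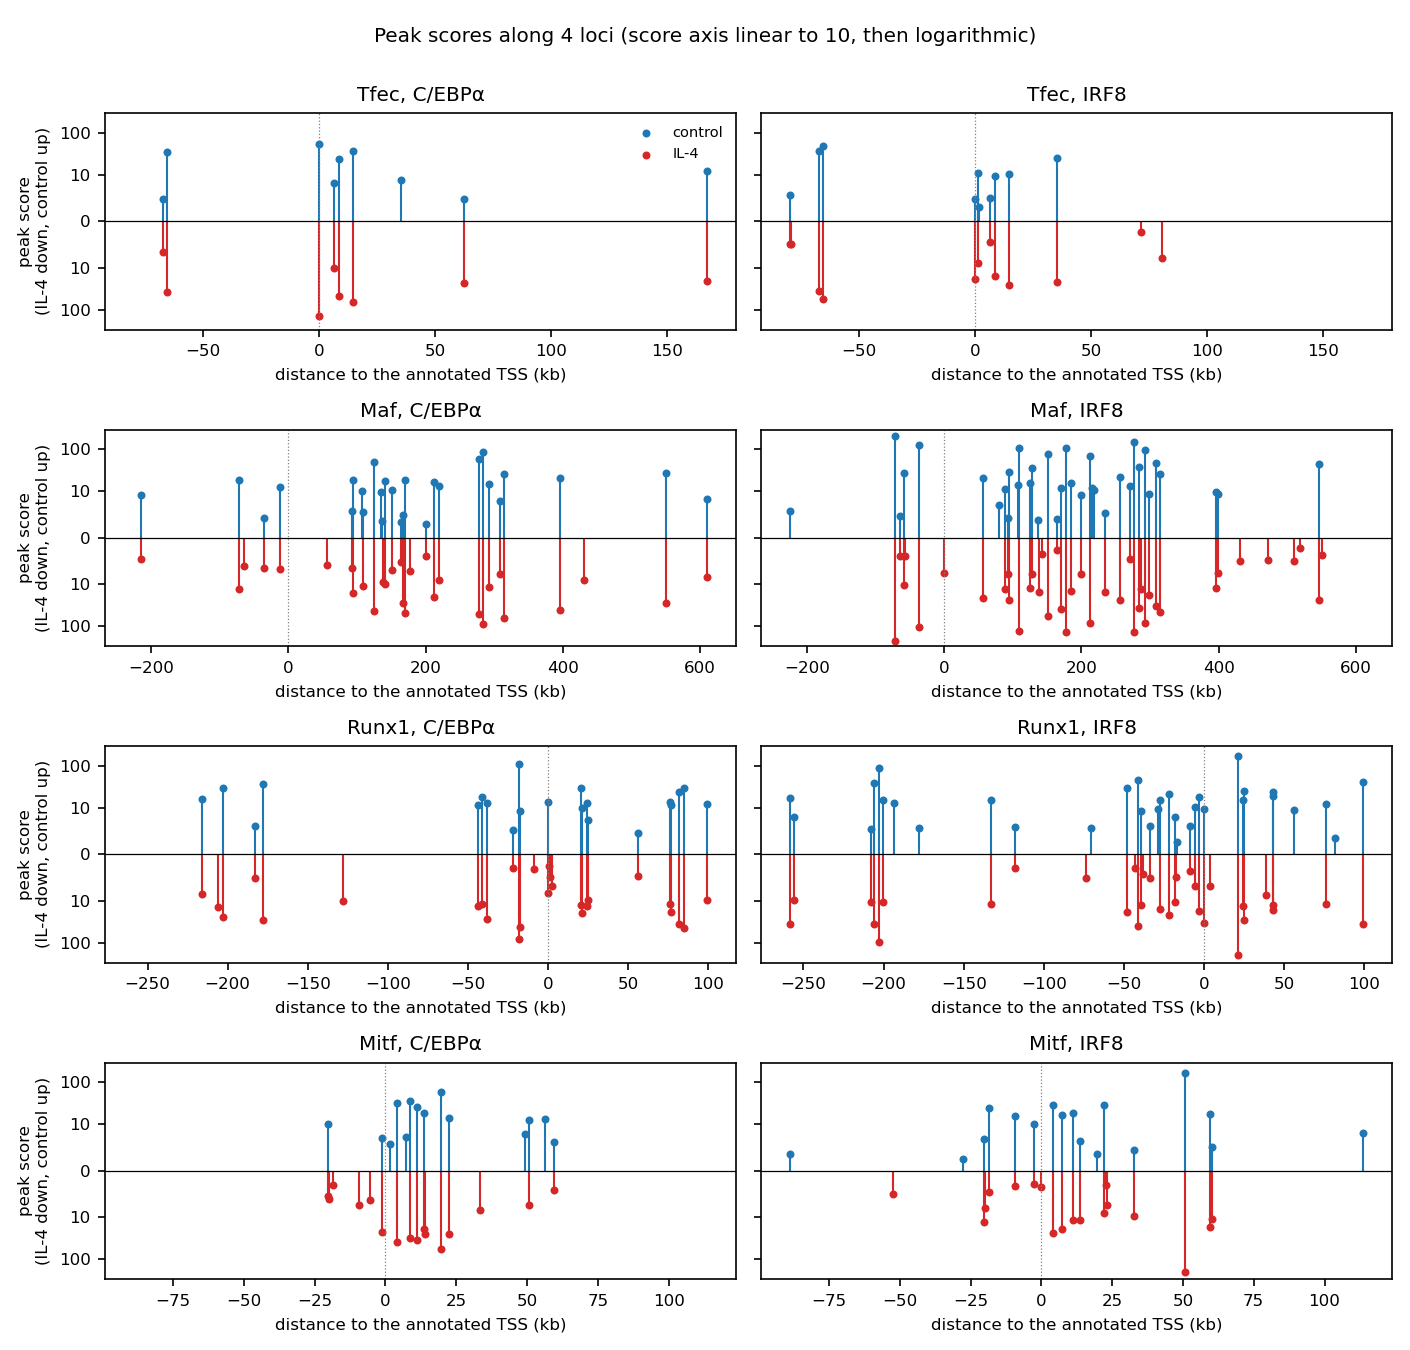
Peak scores along the Tfec, Maf, Runx1 and Mitf loci for C/EBPα (left) and IRF8 (right), by distance to the nearest annotated TSS of the gene in kb; control scores point up (blue) and IL-4 scores point down (red), on an axis that is linear to 10 and logarithmic beyond. At Tfec the red C/EBPα stems exceed the blue ones at each of the 8 shared peaks, and at Mitf several IRF8 stems upstream of the TSS shorten after IL-4.

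At Maf, the rises were at distal sites. C/EBPα went from 4.91 to 28.62 at 167080 bp (5.83-fold), from 18.19 to 49.34 at 169819 bp (2.71-fold), from 25.46 to 65.27 at 314344 bp (2.56-fold) and from 20.8 to 41.94 at 395750 bp (2.02-fold), the last of these within Wwox. IRF8 rose beside C/EBPα at 169819 bp, from 11.74 to 38.91, and went from 25.71 to 45.77 at 314344 bp. Elsewhere in the locus IRF8 fell, from 36.5 to 7.74 at 128196 bp, from 27.18 to 10.64 at -58331 bp and from 13.04 to 4.59 at 270356 bp. It rose from 5.4 to 14.96 at 234323 bp. None of these places, with a fall or a rise, had a C/EBPα peak in either condition. Over the whole locus 13 of 24 C/EBPα pairs (49.7% of all) and 13 of 30 IRF8 pairs (55.4% of all) were higher after IL-4. For IRF8 it was 15 of 30 after division by the list median.

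At Runx1, the factors moved apart at the promoter. IRF8 rose there from 9.78 to 33.79 (3.46-fold), while C/EBPα went from 14.13 to 8.33. C/EBPα rose from 9.22 to 41.92 at -17763 bp (4.55-fold) in intron 2 of 6, next to its strongest Runx1 peak, which went from 109.4 to 83.56. It also rose from 13.04 to 27.96 at -38236 bp, and it fell from 29.04 to 12.49 at 20683 bp. IRF8 rose from 17.32 to 35.36 at -258410 bp. Runx1 has more than 1 start site, and distances are to the nearest.

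At Mitf, 4 of 13 IRF8 pairs fell 2-fold (7.96% of all IRF8 pairs did) and 2 rose (11.3% of all). Of the 13, 6 were higher after IL-4 (55.4% of all IRF8 pairs were), and 7 of 13 after division by the list median. IRF8 rose from 4.47 to 9.62 at 32738 bp and from 5.09 to 10.78 at 60302 bp. It went from 25.11 to 4.62 at -18413 bp, from 15.74 to 3.19 at -9325 bp and from 10.05 to 2.76 at -2433 bp, all upstream of the TSS, and from 28.55 to 9.13 at 22294 bp in intron 1. At the first pair of these places C/EBPα had no control peak and a weak IL-4 peak (3.0 at -18413 bp and 7.32 at -9325 bp). It went from 14.25 to 25.61 at 22294 bp. Close to the TSS, at -1051 bp, C/EBPα rose from 6.96 to 21.92 (3.15-fold).

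Ets2, Mef2c, Mef2a and the Bhlhe genes had few pairs past 2-fold, in either direction. All 3 C/EBPα pairs of Ets2 were lower after IL-4, from 117.44 to 87.89 (26660 bp), from 17.39 to 6.59 (-42679 bp) and from 7.48 to 5.94 (6115 bp), and IRF8 at the first of these went from 19.06 to 26.67. IRF8 fell from 11.03 to 2.93 in the pair at 6055 bp of Ets2. The same merged region held an IL-4-only IRF8 peak of 10.6, so its highest IRF8 score was 11.03 in control and 10.6 after IL-4. At Mef2c no C/EBPα pair rose 2-fold (0 of 10) and 1 fell, from 13.26 to 5.08 at -566589 bp, where IRF8 rose from 8.57 to 18.85. IRF8 also rose at -473651 bp of Mef2c, from 3.57 to 8.04, and fell at -573825 bp, from 13.69 to 4.99. At Mef2a, IRF8 rose from 5.7 to 14.09 at -89250 bp. At the same gene, C/EBPα fell 4.04-fold at the promoter peak given above, while IRF8 in the same merged region scored 18.11 in control and 19.27 after IL-4. The single C/EBPα pair of Bhlhe40 went from 14.25 to 18.67 and that of Bhlhe41 from 9.11 to 14.1, both changes below 2-fold.

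The peaks that rose were then read for sequence. A STAT6-type match lay in 5 of the 9 C/EBPα pairs of these genes that rose at least 2-fold (55.6%, interval 26.7% to 81.1%), in 8 of 72 that moved less (11.1%, 5.74% to 20.4%) and in 1 of 5 that fell (20.0%, 3.62% to 62.4%). Over all C/EBPα pairs the shares were 28.2%, 7.23% and 2.95%. For IRF8 the match lay in 4 of 12 pairs that rose (33.3%, 13.8% to 60.9%), 8 of 98 that moved less (8.16%) and 0 of 9 that fell, against 18.1%, 7.32% and 4.71% of all IRF8 pairs. The shares of the 9 genes carry wide intervals and rest on peaks that share a locus, and their differences were not tested. Among the C/EBPα pairs, the interval of those that fell overlaps those of both other classes. The 5 C/EBPα pairs were 3 at Maf (167080, 169819 and 314344 bp), 1 at Runx1 (-17763 bp) and the Tfec promoter, whose sequences are the second set above. The 4 IRF8 pairs were the Tfec promoter, Tfec at 14512 bp, Maf at 169792 bp and Runx1 at -18519 bp. Of these, Tfec at 14512 bp and Runx1 held the match in the window of the control peak alone. The Runx1 pair went from 4.29 to 10.81, but its merged region also held a stronger IRF8 control peak of 7.94. With the window of the IL-4 peak alone, an alternative chosen after seeing the data, the match lay in 2 of the 12 IRF8 pairs (16.7%, 4.7% to 44.8%; 15.8% of all) and still in 5 of the 9 C/EBPα pairs (25.4% of all). The Tfec promoter and the Maf region near 169819 bp were counted for both factors. None of the 9 C/EBPα pairs that rose held an AP-1 match (0 of 9; 19.1% of all such pairs). STAT6 itself was not mapped in these samples.

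**Figure D4:**
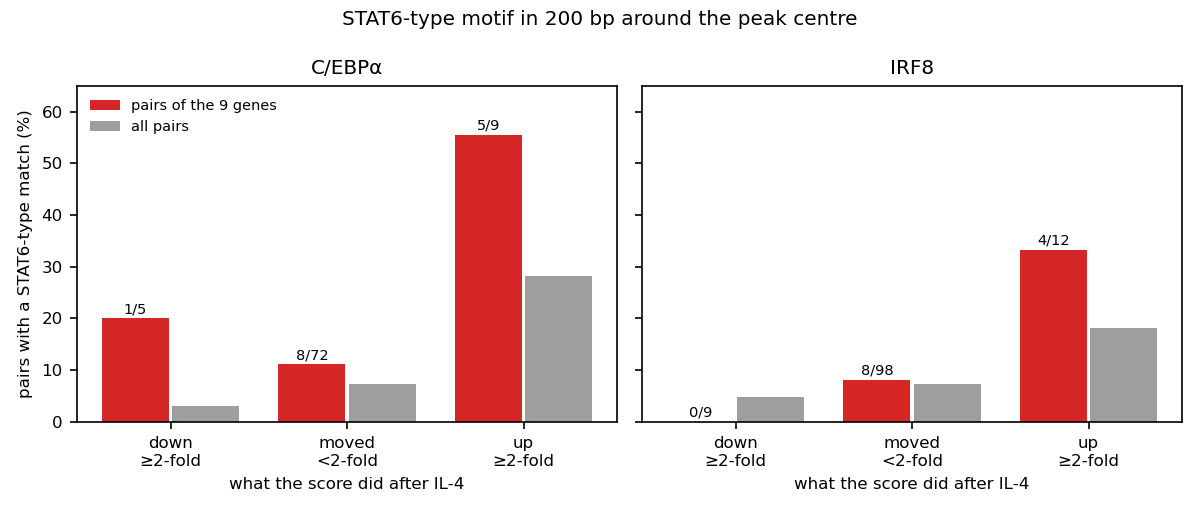
Share of shared-peak pairs with a STAT6-type match within 200 bp around the centre of either peak (y axis, %), by what the score did after IL-4 (x axis), for the 9 genes (red, with the number of pairs with a match and of all pairs above each bar) and for all pairs of the factor (grey). The highest bars are those of pairs that rose at least 2-fold, at 55.6% against 28.2% for C/EBPα and 33.3% against 18.1% for IRF8, and the red bars rest on as few as 5 pairs.

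A single-condition peak has 1 window to search where a pair has 2, so its shares are not set against those of pairs. Among IL-4-only peaks the match lay in 2 of 24 for C/EBPα (8.33%, 2.32% to 25.8%) and 3 of 38 for IRF8 (7.89%, 2.72% to 20.8%), against 20.1% and 11.9% over all IL-4-only peaks. In control, a STAT6-type match lay in 13 of 108 C/EBPα peaks of the 9 genes (12.0%, 7.17% to 19.5%; 6.45% of all C/EBPα control peaks), an interval that leaves out the share of the whole list. It was the only one to do so among the 5 motifs in the 6 lists. The C/EBP match lay in 41 of 108 of their C/EBPα control peaks (29.4% to 47.4%; 34.3% of all) and the PU.1-IRF match in 11.9% of their IRF8 peaks after IL-4 (7.79% to 17.9%; 13.9% of all). The AP-1 match lay in 38.1% of their JUNB control peaks (8 of 21, 20.8% to 59.1%; 55.3% of all).

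The fourth question was where the 3 factors met. All 3 factors shared 15 of the 193 merged regions bound in control (7.77%, 4.77% to 12.4%; 5.38% of all regions bound in control) and 10 of the 193 bound after IL-4 (5.18%, 2.84% to 9.27%; 3.08% of all). Regions with C/EBPα and IRF8 alone numbered 50 in control (25.9%, 20.2% to 32.5%, against 24.5% of all regions bound in control). After IL-4 they numbered 62 (32.1%, 25.9% to 39.0%, against 25.7% of all). Of the 234 regions, 6 had peaks in all 6 lists (2.56%, 1.18% to 5.48%; 1.63% of all regions), and they belonged to Maf, Runx1 and Mef2c with 2 each. The strongest was that of Mef2c at -429633 bp, with C/EBPα scores of 187.87 and 189.44, IRF8 scores of 83.53 and 76.0 and JUNB scores of 15.01 and 11.71 in control and after IL-4. The Runx1 region at 21458 bp had C/EBPα scores of 10.04 and 19.14, IRF8 scores of 174.19 and 199.33 and JUNB scores of 15.41 and 11.54, and the Maf region at 283587 bp had 87.94 and 89.84, 39.07 and 36.89, and 14.68 and 9.59 in the same order. The other regions were Maf at 212335 bp (C/EBPα 16.48 and 19.63, IRF8 69.0 and 82.25), Runx1 at -202811 bp (C/EBPα 29.47 and 23.93, IRF8 88.64 and 98.81) and Mef2c at -554277 bp (C/EBPα 39.25 and 40.8, IRF8 42.79 and 40.54). The JUNB score was lower after IL-4 at each of the 6 regions, and the median score of the whole JUNB list was lower too, 6.21 against 7.88.

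Of 21 JUNB control peaks at the 9 genes, 20 were in a region with IRF8 (95.2%; 81.6% of all regions with JUNB in control), 15 also with C/EBPα (71.4%; 65.1% of all) and 1 with neither (4.76%; 10.5% of all). After IL-4, all 10 JUNB peaks were in regions with both, as were 68.6% of all regions with JUNB. JUNB had a peak at 7 of the 9 genes in control and at 5 after IL-4, and it had none at Ets2 or Bhlhe40. Over all genes, JUNB had a peak at 2715 in control and at 1850 after IL-4. Its scores at the 9 genes were between 3.59 and 15.41 in control and between 3.22 and 11.71 after IL-4, and none scored above more than 87.1% of its list. Of the 9 regions that held all 3 factors in control alone, JUNB was missing after IL-4 in 9, C/EBPα in 1 and IRF8 in 0. The same count over all such regions was not made. Over the whole lists, 64.2% of JUNB control peaks were control-only, against 21.4% for C/EBPα and 21.4% for IRF8.

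In the 14 regions with a JUNB peak in control alone, IRF8 had a peak in both conditions at 13 (92.9%; 70.4% of all 2495 such regions), higher after IL-4 at 6 and lower at 7. C/EBPα had a peak in both conditions at 8 (57.1%; 61.4% of all), higher at 6 and lower at 2. Runx1 at -35679 bp had neither factor, and Mef2c at 97928 bp lost a C/EBPα peak of 5.56 together with that of JUNB. The Maf region at 314344 bp lost a JUNB peak of 5.73 while C/EBPα rose 2.56-fold, and Tfec at 8786 bp lost a JUNB peak of 5.9 while C/EBPα went from 24.27 to 46.91. The strongest JUNB peaks lost were those of Runx1 at 76391 bp (13.7), with the pair of AP-1 matches shown above, and of Mef2c at 68114 bp (13.14), within the strongest IRF8 site of that locus. The 3 JUNB peaks gained were at Tfec (6401 bp, 6.21), Mitf (50913 bp, 5.08) and Maf (56730 bp, 3.22).

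A list of 15 relatives and partners of these factors (Maff, Mafg, Mafk, Runx2, Runx3, Cbfb, Tfeb, Tfe3, Mef2b, Mef2d, Ets1, Fli1, Elf1, Elf4 and Spi1) was read the same way. For C/EBPα, 6 of 46 control peaks were control-only (13.0%, against 21.4% of all) and 6 of 46 IL-4 peaks were IL-4-only (13.0%, against 22.0% of all). Of 40 C/EBPα pairs, 4 rose 2-fold (7.72% of all did) and 2 fell as much (6.56% of all). For IRF8, 22 of 67 were control-only (32.8%, against 21.4% of all) and 34 of 79 IL-4-only (43.0%, against 30.4% of all IRF8 IL-4 peaks). Of 45 IRF8 pairs, 6 rose (11.3% of all did) and 3 fell (7.96% of all). JUNB had 6 control peaks on the list, of which 5 were control-only (64.2% of all JUNB control peaks were), and 1 IL-4 peak. Runx2 held 16 of the 34 IRF8 IL-4-only peaks, with 10 IRF8 peaks in control and 21 after IL-4, whereas its relative Runx1 had 34 and 32. Tfeb, a relative of Tfec, had 5 C/EBPα pairs, none past 2-fold (0 of 5), with a median log2 ratio of 0.16.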

How the data were processed

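Per the labels and the study's methods, chromatin of BMDMs was fixed with DSG and formaldehyde, immunoprecipitated for C/EBPα, IRF8 or JUNB, and made into libraries with either of 2 kits (which sample had which is not given in the sources used here). The submitters' processing notes name BWA 0.7.10, SAMtools 0.1.19, MACS2 2.0.10 and HOMER 4.2. Peaks were called per sample on mm10 and filtered against the ENCODE blacklist; the control library is not given in the sources used here. The deposited score of each peak comes without a unit.

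A minimum overlap of 1 bp made peaks shared. They were paired one-to-one by largest overlap and merged over the 6 lists. Motifs were searched in 200 bp around the centre. Shares carry Wilson 95% intervals. No test was run, since each antibody and condition had 1 sample. Scripts (pandas 2.3.3 and numpy 2.4.6 under Python 3.11.15, with samtools 1.23.1) were tested on simulated data, with 27 of 27 checks passed. The genes, lists and motifs were chosen with earlier results of these data known. Named peaks were, per gene and factor, the highest-scoring one, those within 1000 bp of a TSS, single-condition peaks scoring at least 15, pairs changed at least 2-fold with a score of at least 20, and regions with all 3 factors in both conditions; other peaks were named after their values were seen. The list of related genes and the list of genes of other cells were each fixed with 1 more gene, which is not reported here and is left out of their counts. The symbols Adgre1 and Spi1 were matched through their older names. Alternatives changed the overlap rule, score threshold, rank matching, TSS distance, score scaling and peak width.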

Additional observations from a re-analysis of the deposited data

Results flagged for a closer look

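The 9 genes had 111 C/EBPα peaks after IL-4 against 108 in control and 159 IRF8 peaks against 154, but 10 JUNB peaks against 21. The C/EBPα difference turned with the score limit, with 62 peaks after IL-4 against 66 in control at a score of at least 10, and that of IRF8 was 91 against 83. The whole lists moved the same way, C/EBPα from 24486 to 24612 peaks, IRF8 from 37525 to 42076 and JUNB from 3940 to 2325, and the 9 genes' share of the IRF8 list went from 0.41% to 0.378%. At Tfec, all 8 C/EBPα pairs were higher after IL-4 with a median log2 ratio of 0.77, whereas the 9 IRF8 pairs had a median of -0.08. At Ets2, the 3 C/EBPα pairs were all lower with a median of -0.42, and the 4 IRF8 pairs had a median of 0.12. Each of these differences between factors rests on 1 sample per condition and was not tested. No group had enough samples to look for an outlying one.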

How the results depend on the processing

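Of 12 values for the share of control peaks kept after IL-4, 10 moved by less than the counting interval of the reported share. The others were IRF8 under a reciprocal overlap of 50% (72.1% against 79.2%) and JUNB within 100000 bp of the TSS (7.69%, 1 of 13 peaks, against 33.3%). Of 12 values for the IL-4-only share, 10 stayed, and the others were JUNB with a score of at least 10 (0.0%, 0 of 2 peaks) and within 100000 bp (75.0%, 3 of 4 peaks), against 30.0%. Of 15 median score ratios 14 stayed within their spread, which does not fix their size or sign. Dividing each list by its median moved that of IRF8 from -0.07 to 0.03, its share of higher pairs from 44.5% to 53.8%, and the JUNB median from -0.42 to -0.07, and the C/EBPα median turned from 0.03 to -0.01 without Tfec. That scaling shifted every IRF8 ratio by 0.11 and every JUNB ratio by 0.34 on the log2 scale, so that 18 IRF8 pairs in place of 12 were past 2-fold up. The C/EBPα lists have nearly equal medians, so it could not move their pairs and says nothing of those at Tfec. The count of regions with all 3 factors fell by construction with fewer peaks, from 15 in control to 6 with a score of at least 10 and to 9 within 100000 bp. After IL-4 it went from 10 to 2 and to 4, and to 3 with a reciprocal overlap of 50%. Peaks per gene, factor and condition stayed within 1.5 times in 55 of 108 values, and the others were lower under the score or distance limit. No paired analysis was possible because the labels give no replicate numbers and each antibody and condition had 1 sample; for the same reason none could be left out. Depth is unknown, so a peak missing from a list may have been below its threshold.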
